A study of Homo sapiens with 9 samples.

Results

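Messenger RNA of 38 genes of the unfolded protein response and of the heat shock chaperone system was followed in LN229 cells, an established human glioblastoma line, during treatment with sodium formate. The genes were listed by symbol, as members of the chaperone families and their regulators, with earlier results of these data known. All 38 were found among the 23727 genes of the deposited count table, and all 38 had enough counts to be tested. By the place where their products work, 22 belong to the endoplasmic reticulum (ER), 13 to the cytosol and nucleus, and 3 to mitochondria. All groups shared a culture medium that held 17 mM glucose, 10% fetal bovine serum and glutamine at 2 mM. The 3 groups were untreated cells taken at 0 h, cells given 500 µM sodium formate for 8 h, and cells given the same dose for 24 h, with 3 libraries each. Formate is a small carboxylate that cells make and use in folate metabolism. No untreated cells were taken at 8 h or 24 h, so formate and time in culture cannot be told apart. Nothing in the labels says that the libraries of a group came from separate cultures, and the p-values below then measure only the spread between these libraries.

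Chaperones bind unfolded protein chains and help them fold, and each compartment has its own set. In the ER, the HSP70 protein BiP (HSPA5) and the HSP90 protein GRP94 (HSP90B1) fold secreted and membrane proteins. Unfolded protein there activates the sensors ATF6, IRE1 (ERN1) and PERK (EIF2AK3), which raise transcription of ER chaperones, of disulphide isomerases and of the machinery that sends misfolded protein to the proteasome. In the cytosol, heat shock factor 1 (HSF1) does the same work for the inducible HSP70 genes (HSPA1A, HSPA1B), HSP90, the J proteins and small heat shock proteins. Both systems are known to be active in growing tumour cells.

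The promoters of 4 cytosolic and 2 ER genes that the results turn on are shown here because the response to unfolded protein in each compartment acts on promoter elements of its own. Each line gives the 250 bases before the RefSeq transcription start (GRCh38.p14), 5′ to 3′ on the strand of the gene. In the first 4, capitals mark paired heat shock units, TTCNNGAA or GAANNTTC, where runs of capitals longer than 8 bases are overlapping matches. In the last pair, capitals mark the ER stress element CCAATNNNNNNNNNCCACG on either strand.
HSPA1A (chr6:31815293-31815542, plus strand): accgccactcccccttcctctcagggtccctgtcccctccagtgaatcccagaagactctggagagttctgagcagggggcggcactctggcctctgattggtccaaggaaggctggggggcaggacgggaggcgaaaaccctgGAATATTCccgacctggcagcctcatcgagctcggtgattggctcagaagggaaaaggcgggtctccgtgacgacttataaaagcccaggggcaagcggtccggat
HSPA8 (chr11:123062137-123062386, minus strand): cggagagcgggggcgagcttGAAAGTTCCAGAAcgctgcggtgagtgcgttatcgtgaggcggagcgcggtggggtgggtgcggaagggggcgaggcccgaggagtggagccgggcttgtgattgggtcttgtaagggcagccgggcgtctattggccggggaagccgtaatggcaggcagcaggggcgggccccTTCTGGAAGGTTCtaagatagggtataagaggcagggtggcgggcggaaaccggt
HSP90AA1 (chr14:102087045-102087294, minus strand): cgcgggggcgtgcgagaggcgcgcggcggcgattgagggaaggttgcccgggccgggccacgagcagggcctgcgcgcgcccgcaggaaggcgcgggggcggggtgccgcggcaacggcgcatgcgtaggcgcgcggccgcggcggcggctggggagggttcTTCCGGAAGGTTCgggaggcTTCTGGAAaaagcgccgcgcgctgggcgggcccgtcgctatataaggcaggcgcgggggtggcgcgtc
DNAJB1 (chr19:14518398-14518647, minus strand): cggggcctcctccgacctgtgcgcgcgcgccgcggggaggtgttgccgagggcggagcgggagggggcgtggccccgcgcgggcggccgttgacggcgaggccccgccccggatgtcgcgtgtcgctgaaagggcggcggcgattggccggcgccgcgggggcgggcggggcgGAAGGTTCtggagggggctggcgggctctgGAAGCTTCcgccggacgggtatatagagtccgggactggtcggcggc
HSPA5 (chr9:125241344-125241593, minus strand): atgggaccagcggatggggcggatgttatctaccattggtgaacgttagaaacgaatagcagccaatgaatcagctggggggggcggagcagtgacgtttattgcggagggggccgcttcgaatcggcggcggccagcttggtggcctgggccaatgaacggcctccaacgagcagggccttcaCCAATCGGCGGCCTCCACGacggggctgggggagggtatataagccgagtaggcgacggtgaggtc
HSP90B1 (chr12:103930160-103930409, plus strand): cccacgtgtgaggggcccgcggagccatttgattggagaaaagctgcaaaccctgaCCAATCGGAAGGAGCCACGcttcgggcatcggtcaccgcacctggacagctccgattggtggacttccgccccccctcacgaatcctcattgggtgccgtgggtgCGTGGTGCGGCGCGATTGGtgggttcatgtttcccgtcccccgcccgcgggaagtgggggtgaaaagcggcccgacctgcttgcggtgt

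RefSeq windows were matched for 35 of the 38 genes, all but CRYAB, HSF1 and PDIA3. The paired heat shock units were present in 10 of them, of which 8 were cytosolic (DNAJA1, DNAJB1, HSP90AA1, HSP90AB1, HSPA1A, HSPA1B, HSPA8 and HSPB1), 1 was of the ER (CANX) and 1 mitochondrial (HSPD1). The same letters occurred in 11.6% of all 35116 windows of this length. The longer form with 3 units, GAANNTTCNNGAA or TTCNNGAANNTTC, contains the paired form and was found in HSP90AA1, HSP90AB1, HSPA8 and HSPD1, and in 0.441% of all windows. In HSPA8 it stood 55 to 43 and again 230 to 218 bases before the start, and in HSP90AA1 88 to 76 bases before it. The ER stress element was found in 7 genes, all of the ER (CALR, CANX, CRELD2, HSP90B1, HSPA5, PDIA6 and XBP1), against 0.074% of all windows. Its shorter second form, ATTGGNCCACG, was found in HERPUD1, HYOU1 and SDF2L1, against 0.0513% of windows. These matches describe the letters of a window and not the binding of a factor. The genes were listed as members of these pathways, so the shares beside all windows are no test.

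Libraries held from 22222298 to 25848242 counts. Levels are given as CPM, the counts of a gene per 1000000 counts of a library, on library sizes scaled by TMM, with factors from 0.920 to 1.06. On the first principal component the libraries numbered 1 of 0 h and 8 h were far from the other 4 of those times, with scores of -23.5 and -21.6 against -3.41 to -0.80. The scores of the 24 h libraries were 9.56, 20.0 and 25.0. Of the 13 cytosolic genes, replicate 1 held the highest level for 12 at 0 h and for 11 at 8 h, and it held the lowest level for 7 at 24 h. Results are therefore also given without the 3 libraries numbered 1.

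In untreated cells the genes spanned a wide range of levels. Per kilobase of exon, the cytosolic genes HSP90AB1, HSPA8 and HSP90AA1 stood highest, with 726 ± 97.7, 704 ± 151 and 672 ± 119 CPM per kilobase (SD, n = 3). These 3 neighbours in the order overlapped among their replicates, and HSP90AA1 was separate from the next gene, P4HB. P4HB, CALR, HSP90B1 and HSPA5 followed with 483, 441, 404 and 396 CPM per kilobase, each overlapping its neighbour. The inducible pair HSPA1A and HSPA1B stood far lower, at 24.6 and 25.1 CPM per kilobase. The lowest levels were those of the sensor ERN1, with 0.865, and of the small heat shock protein CRYAB, with 0.589 CPM per kilobase, and these overlapped. The order depends on the exon lengths, which are those of all annotated exons of a gene. It also depends on how reads shared with near copies, as between HSPA1A and HSPA1B, or with pseudogenes were counted, which is not given.

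**Figure D1:**
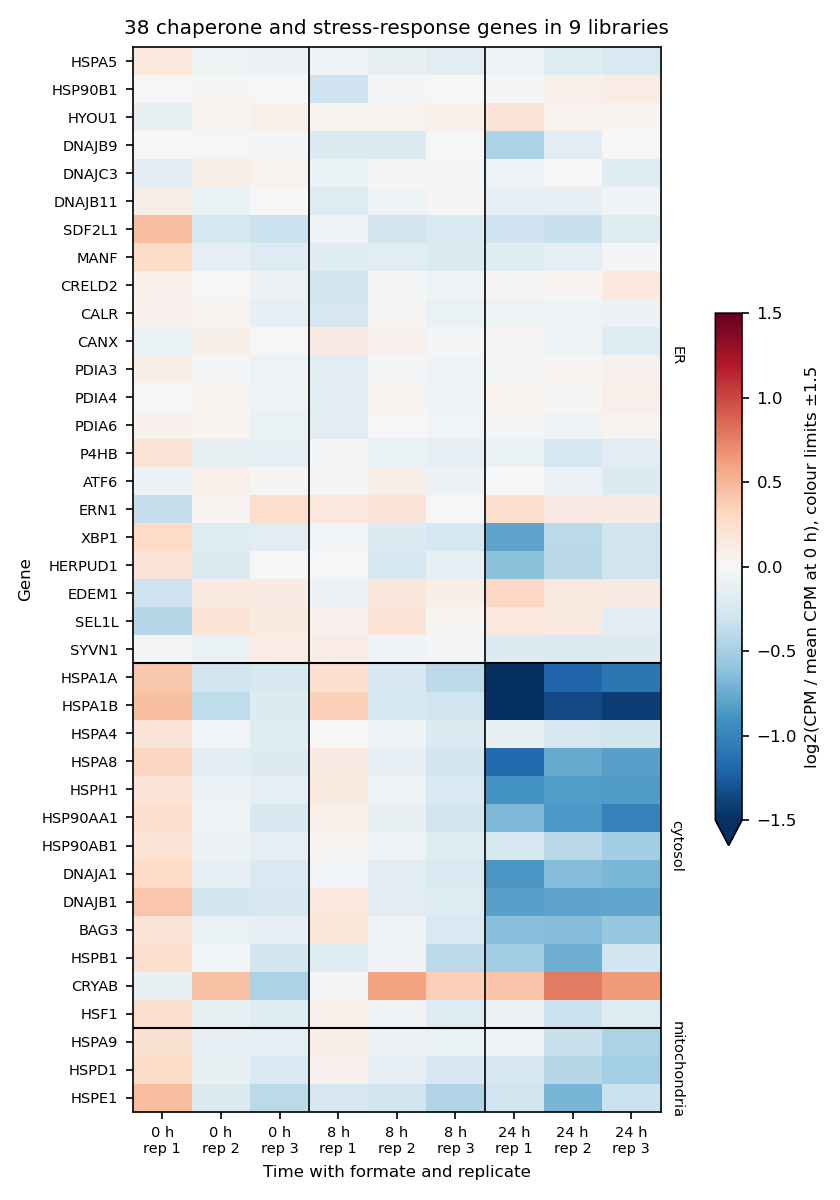
Level of each of the 38 genes (rows) in each of the 9 libraries (columns), as log2 of CPM over the mean CPM of the untreated libraries. Colours stop at ±1.5, and HSPA1A and HSPA1B in replicate 1 of 24 h lie below that limit. Most of the cytosolic rows are blue in all 3 libraries of 24 h, CRYAB is the exception, and the ER rows stay pale apart from XBP1 and HERPUD1 in replicate 1 of 24 h.

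The first comparison asked what 8 h of formate did to these genes. None of the 38 passed the threshold of an adjusted p under 0.05 (edgeR's quasi-likelihood test, adjusted over all genes by Benjamini-Hochberg), and none had an unadjusted p under 0.05. Over all 15273 genes tested, 0% passed in either direction and 0.517% had an unadjusted p under 0.05, so the call of no gene was not particular to the chaperones. The replicate block, in which the replicate number enters the fit, and DESeq2 also called 0 genes, with an unadjusted p under 0.05 for 155 and 66 genes. Fitted log2 fold changes ran from -0.19 to 0.12 for the ER genes, with a median of -0.08 and a median standard error (SE) of 0.12. For the cytosolic genes they ran from -0.20 to 0.33, with a median of -0.06 and a median standard error of 0.16. The median over all tested genes was -0.02. Levels of single libraries are given below in the order of replicates 1, 2 and 3. A missed threshold does not show that the levels were equal.

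The second comparison set 24 h of formate against 0 h, and here the compartments differed in their counts. Of the 13 cytosolic genes, 8 fell and 0 rose, where 1.77% of all tested genes fell and 2.47% rose. Of the 22 ER genes and the 3 mitochondrial genes, 0 passed in either direction by edgeR. DESeq2, which called 5.14% of all genes lower and 5.81% higher, called 10 cytosolic genes, 2 ER genes (HERPUD1 and XBP1) and 0 mitochondrial genes, all lower. Before adjustment, 26.4% of all tested genes had a p under 0.05, as did 3 of the 22 ER genes, 11 of the 13 cytosolic genes and 1 of the 3 mitochondrial genes. The median log2 fold change was -0.73 for the cytosolic genes, -0.08 for the ER genes and -0.39 for the mitochondrial genes, beside 0.01 over all tested genes. The replicate numbers were taken to pair the libraries of these times. With the replicate block 10 cytosolic genes fell and 1 rose, 2 ER genes fell and 2 mitochondrial genes fell. That fit called 11.6% of all genes lower and 12.6% higher, so 2 of 22 ER genes is near its background. Without the libraries numbered 1, a setting added after the data were seen, 9 cytosolic and 2 mitochondrial genes fell and 0 ER genes passed, where 7.96% of all genes fell and 8.95% rose.

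**Figure D2:**
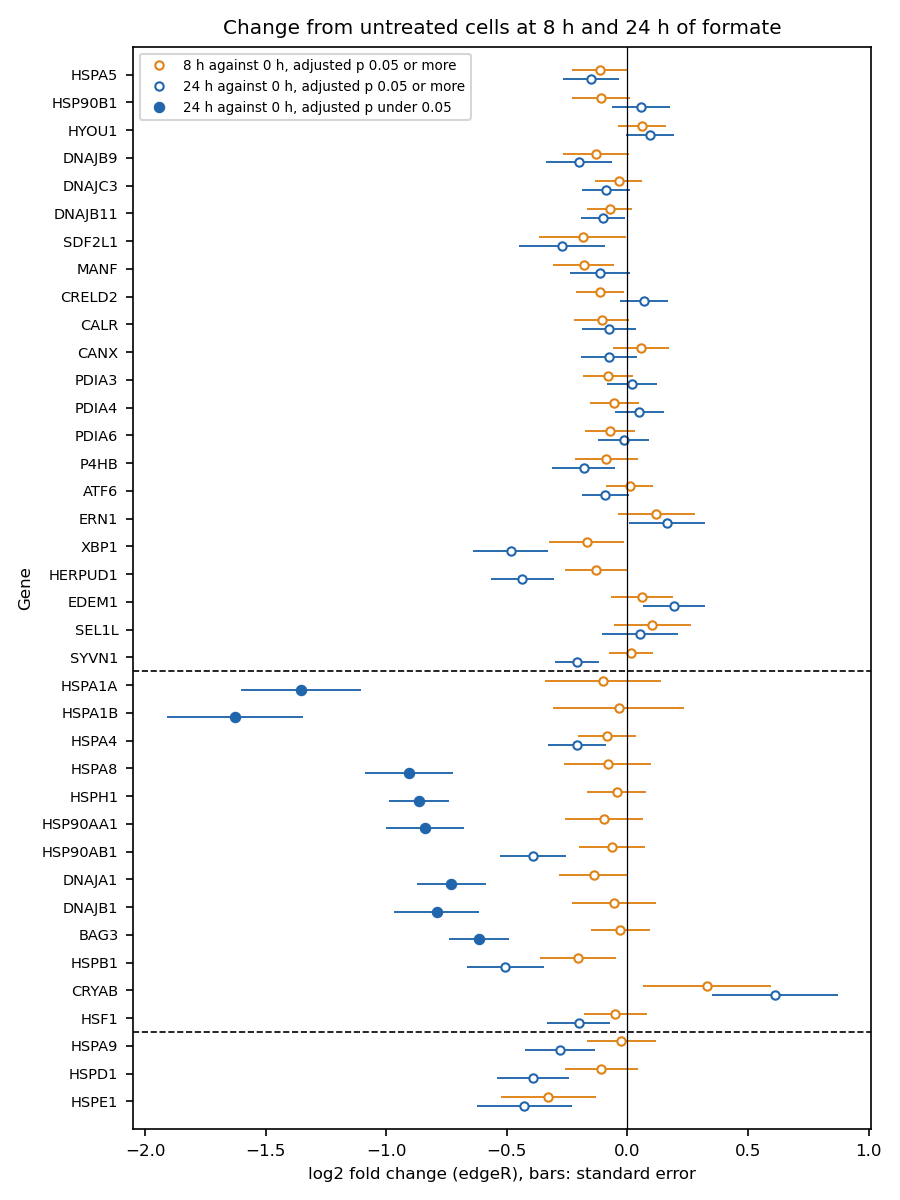
Fitted log2 fold change of each gene at 8 h (orange) and 24 h (blue) against untreated cells, with bars of 1 standard error. Filled points have an adjusted p under 0.05, and dashed lines part the ER, cytosolic and mitochondrial genes. The 8 filled points are all cytosolic and lie between -1.63 and -0.62.

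Among the ER chaperones, the transcripts of the 2 most abundant, HSPA5 and HSP90B1, had no call at 24 h. HSPA5, the ER HSP70, had 1722, 1468 and 1454 CPM at 0 h, 1478, 1428 and 1382 CPM at 8 h, and 1492, 1365 and 1322 CPM at 24 h. Replicate 1 of 0 h was the highest library and the groups overlapped, with a log2 fold change of -0.15 and a standard error of 0.12 at 24 h (edgeR, adjusted p 0.412). HSP90B1, the ER HSP90, had 1892, 1914 and 1889 CPM at 0 h, 1535, 1854 and 1890.4 CPM at 8 h, and 1861, 2007 and 2054 CPM at 24 h. Its low library was replicate 1 of 8 h, and its log2 fold change at 24 h was 0.06 (SE 0.12; edgeR, adjusted p 0.788). DNAJB9, the J protein ERdj4 and a common readout of IRE1 activity, had 14.0, 14.0 and 13.8 CPM at 0 h, 12.1, 12.1 and 14.0 CPM at 8 h, and 9.98, 12.3 and 14.0 CPM at 24 h. Replicate 1 of 24 h was low while replicate 3 equalled the untreated level to within rounding, and the adjusted p was 0.361. The other 6 ER chaperones and cofactors (HYOU1, DNAJC3, DNAJB11, SDF2L1, MANF and CRELD2) also had overlapping groups at 24 h. For these 9 genes together the log2 fold changes ran from -0.27, for SDF2L1, to 0.09, for HYOU1. The untreated level of SDF2L1 was 65.4 CPM in replicate 1 and 39.8 and 38.1 CPM in replicates 2 and 3. The log2 fold changes of SDF2L1, MANF and HYOU1 were 0.038, 0.093 and -0.013 without the libraries numbered 1, each of the other sign, and none was called.

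The lectins CALR and CANX, which hold glycoproteins in the ER during folding, and the disulphide isomerases PDIA3, PDIA4, PDIA6 and P4HB, which form and rearrange disulphide bonds, were the flattest group. Their log2 fold changes at 24 h ran from -0.18, for P4HB, to 0.05, for PDIA4, with adjusted p-values from 0.388 to 0.941 by edgeR, and the replicates overlapped in all 6. CALR had 1137, 1143 and 1125 CPM at 24 h, inside the untreated values of 1254, 1234 and 1101 CPM. Genes on the opposite strand overlap 25.2% of the exons of PDIA6 and 18.9% of those of PDIA3, and the strand setting of the counts is not given in the sources used here.

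The sensors showed no call. ATF6, the membrane-bound transcription factor that is cut free under ER stress, had 132, 148 and 142 CPM at 0 h, 142, 150.2 and 133 CPM at 8 h, and 142, 133 and 122 CPM at 24 h, and the groups overlapped (log2 fold change -0.09, adjusted p 0.562 by edgeR). ERN1, which encodes the IRE1 kinase and nuclease, had 7.31, 9.59 and 11.3 CPM at 0 h, 10.5, 10.8 and 9.40 CPM at 8 h, and 11.2, 10.2 and 10.2 CPM at 24 h, again overlapping (0.17, adjusted p 0.516). The log2 fold change of ERN1 was -0.024 without the libraries numbered 1. XBP1, whose transcript IRE1 splices and which then encodes a transcription factor, was the ER gene with the lowest fold change. It had 127, 91.4 and 91.7 CPM at 0 h, 100.2, 89.5 and 86.0 CPM at 8 h, and 59.8, 78.0 and 84.0 CPM at 24 h. All 3 libraries of 24 h lay below the 3 untreated ones, and the widest gap was that between the libraries numbered 1. The log2 fold change was -0.48 (SE 0.16), which missed the threshold (edgeR, adjusted p 0.0917) and passed with the replicate block (adjusted p 0.0428) and with DESeq2 (0.0358). Without the libraries numbered 1 it was -0.18 (adjusted p 0.122). Gene counts do not separate spliced from unspliced XBP1.

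Of the 4 genes of ER-associated degradation, HERPUD1 and SYVN1 had libraries of 24 h that all lay below the untreated ones, and EDEM1 and SEL1L overlapped. Untreated and 24 h groups did not overlap, with 24 h lower, in 14.4% of all genes, in 3 of the 22 ER genes (these and XBP1), in 10 of the 13 cytosolic genes and in HSPD1. With 24 h higher they did not overlap in 15.9% of all genes and in 0 of the 38. HERPUD1, a ubiquitin-like ER membrane protein that joins the degradation complex, had 44.0, 33.0 and 38.1 CPM at 0 h, 38.1, 31.9 and 35.1 CPM at 8 h, and 25.0, 28.7 and 31.3 CPM at 24 h. Its log2 fold change was -0.44 (SE 0.13), short of the threshold (edgeR, adjusted p 0.0754) and past it with the replicate block (adjusted p 0.0214) and with DESeq2 (0.0256). Without the libraries numbered 1 it was -0.24 (adjusted p 0.122). SYVN1, the ubiquitin ligase HRD1, had a mean of 104 ± 7.88 CPM at 0 h and 90.2 ± 0.377 CPM at 24 h (SD, n = 3), with a log2 fold change of -0.21 (edgeR, adjusted p 0.170, and 0.0828 with the block). EDEM1, a mannosidase-like lectin of degradation, and SEL1L, the partner of SYVN1, had log2 fold changes of 0.19 and 0.05, and of 0.0015 and -0.18 without the libraries numbered 1. None of these passed.

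The cytosolic HSP70 genes carried the largest fold changes. HSPA1A (ENSG00000204389, GRCh38 chromosome 6, 31815464 to 31817946, plus strand), the stress-inducible HSP70, had 81.2, 50.3 and 52.0 CPM at 0 h, 72.9, 51.7 and 46.6 CPM at 8 h, and 16.4, 26.5 and 28.8 CPM at 24 h. All 3 libraries of 24 h lay below every library of 0 h and 8 h, and replicate 1 moved from the highest untreated level to the lowest level of 24 h. The mean went from 61.2 ± 17.4 to 23.9 ± 6.62 CPM (SD, n = 3), a log2 fold change of -1.35 (SE 0.25; edgeR, adjusted p 0.0240). HSPA1B (ENSG00000204388, chromosome 6, 31827735 to 31830255, plus strand), its neighbour and near copy, had 86.3, 48.4 and 55.0 CPM at 0 h, 80.8, 52.5 and 51.5 CPM at 8 h, and 12.8, 24.7 and 23.8 CPM at 24 h. Its groups were as clearly apart, and its log2 fold change was -1.63 (SE 0.28; edgeR, adjusted p 0.0202). Another gene on the same strand, AL671762.1, overlaps 36.5% of the exons of HSPA1B.

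The coding sequences of HSPA1A and HSPA1B are 1923 bases each and 99.8% identical, with 4 different bases, so the split of reads between them is uncertain. Their summed level is also uncertain, since how reads that match both were counted is not known. With their counts summed into 1 gene, a setting added after the data were seen, the log2 fold change was -1.49 (edgeR, adjusted p 0.0207). Without the libraries numbered 1 the values were -0.88 for HSPA1A and -1.09 for HSPA1B, and both were called. Between same-numbered libraries the log2 ratio of 24 h to 0 h was -2.31, -0.92 and -0.85 for HSPA1A and -2.75, -0.97 and -1.21 for HSPA1B.

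HSPA8, the constitutive HSP70 of the cytosol (HSC70), had 4260.0, 3026 and 2954 CPM at 0 h, 3729, 3145 and 2802 CPM at 8 h, and 1515, 2015 and 1939 CPM at 24 h. The 24 h libraries were all lower than the other 6, and the mean went from 3413 ± 734 to 1823 ± 269 CPM (SD, n = 3). The log2 fold change was -0.90 (SE 0.18; edgeR, adjusted p 0.0280), and -0.60 without the libraries numbered 1. The annotation holds 17 pseudogene copies of HSPA8, which leaves part of its counts uncertain. HSPH1, the HSP110 protein that exchanges nucleotide on HSP70, had 367, 301 and 292 CPM at 0 h, 353, 303 and 273 CPM at 8 h, and 171, 178 and 178 CPM at 24 h. Its 24 h libraries lay within a narrow range far below the rest, with a log2 fold change of -0.86 and a standard error of 0.12 (edgeR, adjusted p 0.0167). HSPA4, another HSP110-type exchange factor, was the member of this group without a call. It had 473, 399.9 and 365 CPM at 0 h and 383, 348 and 341 CPM at 24 h, overlapping groups and a log2 fold change of -0.21 (edgeR, adjusted p 0.277, and 0.0830 with the block).

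The cytosolic HSP90 pair differed in the size of its change. HSP90AA1, the stress-responsive HSP90 alpha, had 4207, 3392 and 2982 CPM at 0 h, 3720.5, 3269 and 2906 CPM at 8 h, and 2215, 1947 and 1749 CPM at 24 h. No library of 24 h reached the lowest of the others, and the log2 fold change was -0.84 (SE 0.16; edgeR, adjusted p 0.0268). Without the libraries numbered 1 it was -0.78. HSP90AB1, the constitutive HSP90 beta, had 2496, 2044 and 1952 CPM at 0 h, 2233, 2071 and 1903 CPM at 8 h, and 1826, 1623 and 1507 CPM at 24 h. Its groups did not overlap either, but the log2 fold change was -0.39 (edgeR, adjusted p 0.114). The adjusted p was 0.00614 with the replicate block and 0.0338 by DESeq2. The log2 fold change of HSP90AB1 was -0.35 without the libraries numbered 1 and was called (edgeR, adjusted p 0.0216).

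**Figure D3:**
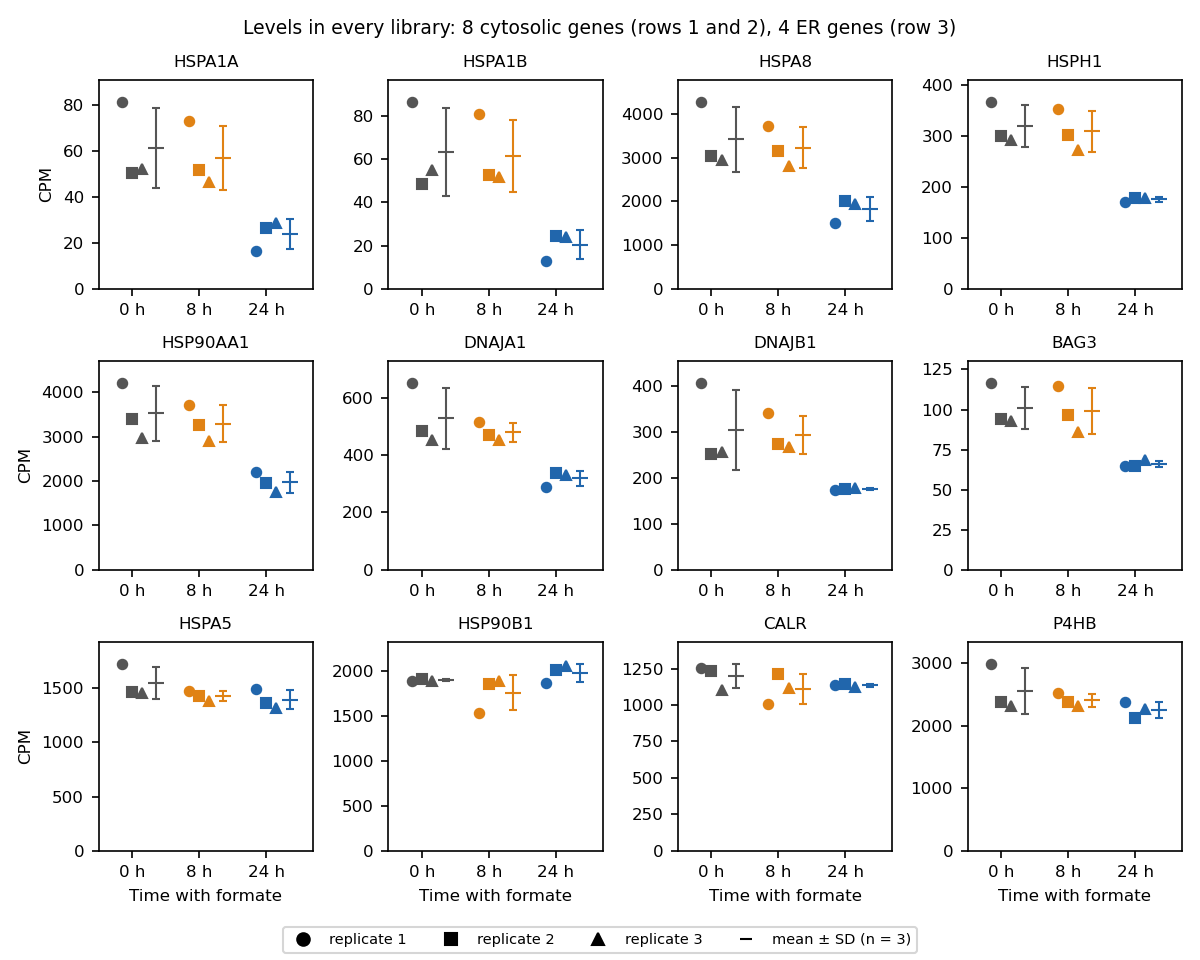
CPM of 12 genes in each library, with symbols for the replicate number and the mean ± SD of each group (n = 3) to the right of the points; axes start at 0. In the 8 cytosolic genes of the upper rows every 24 h library lies below every library of 0 h and 8 h, and in the 4 ER genes of the lowest row the groups overlap between 0 h and 24 h.

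All 3 members in the list of cytosolic J proteins and BAG3 fell at 24 h. DNAJB1, the J protein that hands clients to HSP70, had 405, 252 and 255 CPM at 0 h, 341, 272 and 266 CPM at 8 h, and 173, 176 and 178 CPM at 24 h. Untreated replicate 1 was far above its group, and even so the lowest untreated library lay well above all of 24 h. The log2 fold change was -0.79 (SE 0.18; edgeR, adjusted p 0.0345), and -0.52 without the libraries numbered 1. DNAJA1, a farnesylated J protein of the same cycle, had 650.2, 483 and 451 CPM at 0 h, 515, 471 and 452 CPM at 8 h, and 289, 337 and 329.7 CPM at 24 h, a log2 fold change of -0.73 (SE 0.14; edgeR, adjusted p 0.0268). BAG3, which links HSP70 to selective autophagy, had 116, 94.3 and 92.9 CPM at 0 h, 115, 96.4 and 86.2 CPM at 8 h, and 64.7, 64.7 and 68.5 CPM at 24 h, a log2 fold change of -0.62 (SE 0.12; edgeR, adjusted p 0.0280). In both genes the 24 h libraries lay below all others. Without the libraries numbered 1, the log2 fold change was -0.49 for each of DNAJA1 and BAG3.

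The small heat shock proteins, which hold unfolded proteins without using ATP, and HSF1 itself were not called by edgeR without the block. HSPB1, or HSP27, had 314, 253 and 214 CPM at 0 h, 227, 252 and 199 CPM at 8 h, and 181, 156 and 213 CPM at 24 h. Replicate 3 of 24 h almost met the lowest untreated library, and the log2 fold change was -0.51 (edgeR, adjusted p 0.0857, and 0.0316 with the block; DESeq2, 0.0289). CRYAB, or alpha-B crystallin, was at the limit of reliable counting, with 1.65, 2.43 and 1.28 CPM at 0 h, 1.77, 2.71 and 2.30 CPM at 8 h, and 2.41, 3.06 and 2.78 CPM at 24 h. It was the 1 cytosolic gene with a positive log2 fold change, 0.61, its groups overlapped, and the adjusted p was 0.168 by edgeR and 0.0426 with the block. Genes on the opposite strand overlap 20.6% of the exons of CRYAB. HSF1, the transcription factor of the heat shock response, had 103, 79.5 and 74.6 CPM at 0 h, 90.6, 82.6 and 75.0 CPM at 8 h, and 80.5, 68.3 and 74.7 CPM at 24 h. The groups overlapped, with a log2 fold change of -0.20 (edgeR, adjusted p 0.335). The activity of HSF1 is set largely on the protein and is not read by its transcript.

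The calls at 24 h rested on few libraries where the replicate number was not in the fit. With either replicate 2 or replicate 3 of 24 h left out, 0 of all genes passed by edgeR, while 2550 and 2563 genes had an unadjusted p under 0.05, and the adjusted p of the 8 cytosolic genes then rose to as much as 0.143, for DNAJB1. With the replicate block, all 8 genes passed in each of the 9 fits that left out 1 library, with adjusted p-values no higher than 0.0108. Of the 8 genes, 6 held a paired heat shock unit in the 250 bases before the start (DNAJA1, DNAJB1, HSP90AA1, HSPA1A, HSPA1B and HSPA8), and BAG3 and HSPH1 held none in that window. Of the 3 cytosolic genes without a call that had a window, 2 held it (HSP90AB1 and HSPB1) and HSPA4 did not. The letters occur in 11.6% of all windows.

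In their median the mitochondrial chaperones lay between the other compartments. HSPD1 (HSP60), which folds proteins in the matrix, had 1063, 805 and 739.7 CPM at 0 h, 905, 782 and 732 CPM at 8 h, and 729, 648 and 611 CPM at 24 h. The 24 h libraries lay just below the untreated ones, with a log2 fold change of -0.39 (edgeR, adjusted p 0.140, and 0.00845 with the block). HSPE1 (HSP10), the lid of HSP60 and its divergently transcribed neighbour, and HSPA9 (mortalin), the matrix HSP70, had log2 fold changes of -0.43 and -0.28, with overlapping groups and adjusted p-values of 0.194 and 0.233. The block called HSPA9 (adjusted p 0.0287) and not HSPE1 (0.0730). The log2 fold change of HSPE1 was -0.19 without the libraries numbered 1 and ran from -0.59 to -0.14 with 1 library left out. The median of the 3 genes was -0.17 without untreated replicate 1. The annotation holds 17 pseudogene copies of HSPD1 and 26 of HSPE1.

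As a share of all counts of a library, the 13 cytosolic genes took 1.09% ± 0.134 at 0 h, 1.04% ± 0.0873 at 8 h and 0.706% ± 0.0189 at 24 h (SD, n = 3). The 22 ER genes took 1.25% ± 0.0240, 1.20% ± 0.0601 and 1.26% ± 0.0297. The sum is led by HSPA8, HSP90AA1 and HSP90AB1 in the first case. In these bulk samples fewer cells that express a gene and less of its RNA per cell cannot be told apart.

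Ratios of counts within a library do not depend on the scaling between libraries, and 6 were computed. HSP90AA1 to HSP90AB1 was 1.69, 1.66 and 1.53 in the untreated libraries and 1.21, 1.20 and 1.16 at 24 h. HSP90AA1 to its ER relative HSP90B1 was 2.22, 1.77 and 1.58 at 0 h and 1.19, 0.970 and 0.852 at 24 h. Both ratios were lower in each 24 h library than in any untreated library, so the alpha form of HSP90 was lower relative to each of the others. HSPA8 to its ER relative HSPA5 was 2.47, 2.06 and 2.03 at 0 h and 1.02, 1.48 and 1.47 at 24 h, and HSPH1 to HSPA4 was 0.774, 0.752 and 0.798 and then 0.447, 0.512 and 0.521. The inducible pair HSPA1A and HSPA1B, summed, stood to HSPA8 as 0.0393, 0.0326 and 0.0362 at 0 h and as 0.0193, 0.0254 and 0.0271 at 24 h. The size of this ratio depends on how reads shared between copies were counted. HSPA1A to HSPA1B was 0.976 ± 0.0563 at 0 h and 1.19 ± 0.103 at 24 h (SD, n = 3), higher at 24 h in all libraries, though the near identity of these genes leaves the ratio uncertain. In each of the 6 ratios the groups did not overlap, and the two-sided exact permutation p was 0.1, also after adjustment over the 6, which is the smallest that 3 libraries against 3 can give. The ratios use genes called above, in the same libraries, so they are no independent support for those calls.

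**Figure D4:**
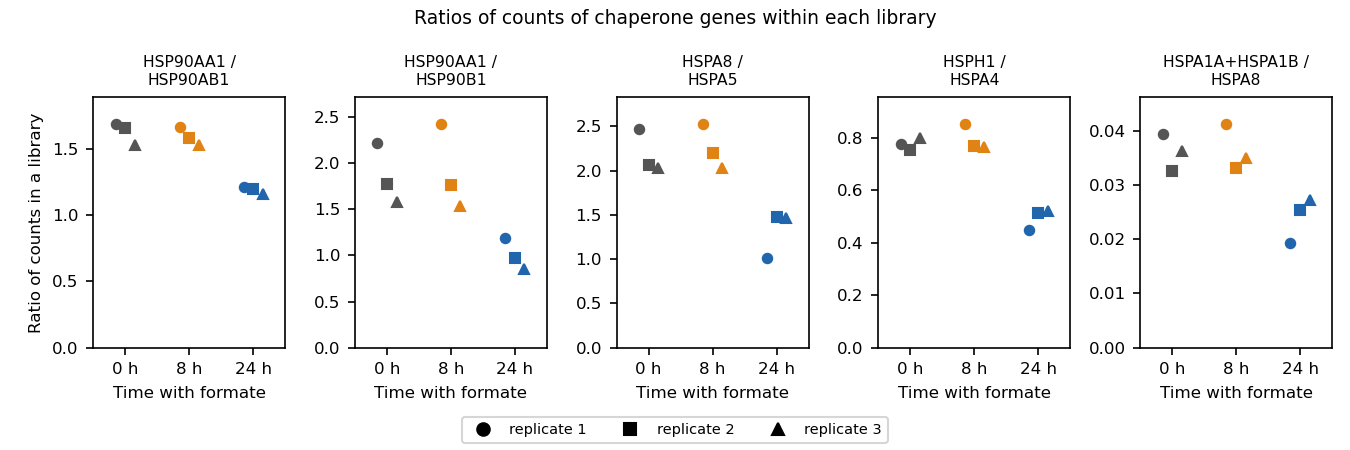
Ratio of the counts of chaperone genes in each library, on axes that start at 0, with symbols for the replicate number. In all 5 panels the 24 h libraries lie below the libraries of 0 h and 8 h; the ratio of HSPA8 to HSPA5 is 1.02 in replicate 1 of 24 h and at least 2.03 in untreated cells.

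Levels at 24 h were also set against those at 8 h. The same 8 cytosolic genes fell, where 1.72% of all genes fell and 2.84% rose, and 0 of 22 ER genes and 0 of 3 mitochondrial genes passed by edgeR. The medians were -0.59 for the cytosolic genes, -0.03 for the ER genes and 0.02 over all genes. HSPA1B had the largest change, with a log2 fold change of -1.59 and a standard error of 0.28 (edgeR, adjusted p 0.0211), and DNAJA1 and BAG3 the smallest of the 8, each -0.59 (adjusted p 0.0430 and 0.0300). This comparison shares the 24 h libraries with the one before, so it is no independent support. In the 8 genes every library of 24 h was below every library of 8 h, as in 16.2% of all genes. It gave 0 calls by edgeR without replicate 1 of 8 h, replicate 2 of 24 h or replicate 3 of 24 h, with 2078, 2446 and 2177 genes at an unadjusted p under 0.05. Fewer of the 8 genes passed without replicate 2 of 8 h (HSPA1A, HSPA1B and HSPH1), replicate 3 of 8 h (HSPA1B and HSPH1), replicate 1 of 24 h (5 genes) or untreated replicate 2 (all but DNAJA1).

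The wider pathways were read from 86 further genes in 7 lists, of which 85 were tested. At 24 h against 0 h 4 of them fell and 0 rose by edgeR without the block, where 1.77% of all tested genes fell and 2.47% rose. All 4 were in the list of cytosolic HSP70, HSP90 and J proteins with 22 tested genes. With the replicate block, which called 11.6% of all genes lower and 12.6% higher, 31 of the 85 fell and 3 rose, with calls in all 7 lists. In the cytosolic list 13 of the 22 fell and 2 rose, HSF2 and SERPINH1. SERPINH1 was placed in that list although its product works in the ER. HSPB8, the small heat shock protein that works with BAG3, went from 28.0 ± 2.43 to 16.1 ± 1.66 CPM (SD, n = 3), a log2 fold change of -0.80 (edgeR, adjusted p 0.0167). BAG2, a nucleotide exchange factor, went from 39.9 ± 5.07 to 27.8 ± 2.26 CPM (-0.52, adjusted p 0.0334). Genes on the opposite strand overlap 44.2% of the exons of BAG2. STIP1, the adaptor HOP that joins HSP70 to HSP90, went from 579 ± 83.5 to 399 ± 34.7 CPM (-0.54, adjusted p 0.0453), and CHORDC1, an HSP90 cochaperone, from 45.4 ± 0.679 to 30.2 ± 6.43 CPM (-0.59, adjusted p 0.0393). The median of that list was -0.40. SERPINH1 (HSP47), the collagen chaperone of the ER that HSF1 controls, had 672 ± 48.5 CPM at 0 h and 821 ± 84.4 CPM at 24 h. Its log2 fold change of 0.29 had an adjusted p of 0.181 by edgeR and passed as higher with the block (0.0359).

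In the PERK arm of the ER stress response, 0 of 8 genes passed without the block and 3 fell with it. DDIT3 (CHOP), a transcription factor of prolonged ER stress, had 53.2, 30.8 and 33.6 CPM at 0 h and 25.0, 24.3 and 23.0 CPM at 24 h, with a log2 fold change of -0.70 (edgeR, adjusted p 0.0566, and 0.00369 with the block). Genes on the opposite strand overlap 31.6% of the exons of DDIT3. PPP1R15A (GADD34), which restores translation after PERK signalling, had a log2 fold change of -0.61 (0.0667, and 0.000547 with the block). ATF4, the transcription factor translated when PERK is active, had -0.30 (0.269, and 0.0313 with the block). TRIB3, a target of ATF4 and CHOP, had -0.26 (adjusted p 0.328), and ERO1A, the oxidase that recharges disulphide isomerases, -0.21 (adjusted p 0.178), both without a call in either fit. The lists of ER folding and translocation, of ER sensors and proteases and of ER-associated degradation had 0 calls among 19, 5 and 15 genes, with medians of -0.13, -0.02 and -0.13. With the block, ERO1B, a second ER oxidase, rose and CALU, a calcium-binding protein, fell in the first of these lists, CREB3 fell in the next, and VCP, UFD1, NPLOC4 and SELENOS of the machine that extracts misfolded proteins fell in the last. All 8 subunits of TRiC, the cytosolic chaperonin that folds actin and tubulin, had negative log2 fold changes, with a median of -0.42. None of the 8 passed without the block, and all 8 fell with it. The list of mitochondrial chaperones and proteases had 0 calls of 8 and a median of -0.21, and with the block 1 of the 8 fell, GRPEL1, the nucleotide exchange factor of HSPA9.

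**Figure D5:**
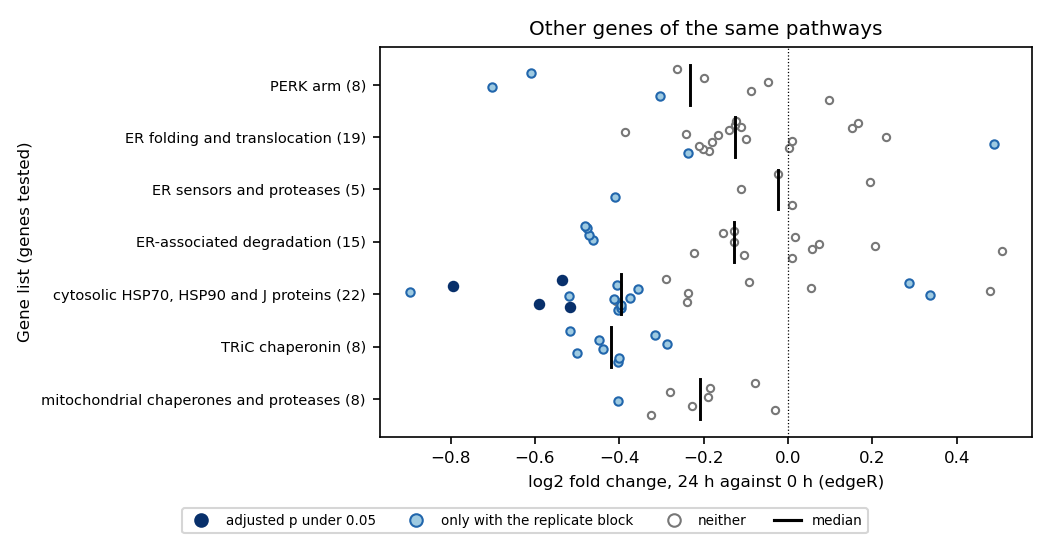
Log2 fold change at 24 h against 0 h of the 85 tested genes in the other 7 lists, 1 point per gene, with list medians as black bars. Dark points passed the edgeR test, pale blue points passed only with the replicate block, and open points passed in neither; the dark points all stand in the list of cytosolic HSP70, HSP90 and J proteins.

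The identity of the cells was read from 24 marker genes, 20 of which were in the table. The glioma line markers VIM, NES, CD44, SOX2 and EGFR were present, with a summed level of 6148 to 8540.4 CPM at 0 h, 6276 to 7283 CPM at 8 h and 4950 to 5908 CPM at 24 h. The summed levels of the immune markers (PTPRC, CD68) and of the epithelial markers (EPCAM, KRT5, CDH1) were no higher than 0.265 and 0.136 CPM in any library, with EPCAM and CDH1 at 0 in all untreated libraries and KRT5 and CDH1 at 0 in all of 24 h. GFAP, the defining marker of astrocytes, was near 0 in all libraries, from 0.129 to 0.425 CPM. The astrocyte markers S100B and SLC1A3 rose at 24 h, with log2 fold changes of 1.38 and 1.58. SNAP25 of the neuron markers (1.09) and VWF of the endothelial markers (1.60) also rose. These passed by edgeR, with adjusted p-values from 0.0277 to 0.0460. Levels were low for SLC1A3 (mean 1.22 CPM at 0 h and 3.69 CPM at 24 h) and VWF (0.424 and 1.28 CPM). SYT1, the other neuron marker in the table, had a log2 fold change of -0.18 (edgeR, adjusted p 0.402). PECAM1, the other endothelial marker, had means of 0.0600 CPM at 0 h and 0.0555 CPM at 24 h and was not tested. With the block VIM and CD44 fell (adjusted p 0.00858 and 0.00690) and OLIG2, of the oligodendrocyte markers, rose (0.0303). The summed astrocyte markers were 85.7 to 179 CPM at 0 h, 60.9 to 177 CPM at 8 h and 291 to 400.2 CPM at 24 h. The summed neuron markers were 38.9 to 54.3, 46.2 to 51.8 and 54.3 to 59.3 CPM, the oligodendrocyte markers 7.12 to 10.5, 8.26 to 9.71 and 11.5 to 14.3 CPM, and the endothelial markers 0.308 to 0.613, 0.318 to 0.656 and 1.04 to 1.70 CPM. Their part in the chaperone results was not tested.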

How the data were processed

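RNA was sequenced from 9 libraries of LN229 cells, 3 at each of 0 h, 8 h and 24 h. A source label spells the line LN299, and the growth protocol's name is used. Per the labels' protocols, RNA integrity numbers were above 9 and the library kit keeps strand. The submitters' processing notes name bcl2fastq 2.20.0.422, STAR 2.7.4a and GRCh38, with no role given. The counting program, annotation and strand setting are not given in the sources used here. The authors deposited 1 table of raw counts per Ensembl gene, with no entry that lacked a gene and 0 columns of no sample.

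A gene name table gave symbols for 23619 of 23727 identifiers, and coordinates and exon lengths from GENCODE 29 on GRCh38 (23252 matched). The filter filterByExpr kept 15273 genes for testing. edgeR 4.0.16 (R 4.3.3, limma 3.58.1) fitted 1 mean per group over all 9 libraries with TMM, and its quasi-likelihood test, two-sided, was adjusted by Benjamini-Hochberg over all genes at 0.05. CPM are counts per 1000000 of the scaled library size, errors are SD over 3 libraries, and standard errors are the log2 fold change over the root of the test's F value. The fit was also run on simulated counts of independent libraries. These held no replicate pairs and no outlying library, so that run cannot speak to the dependence of the calls on single libraries. Ratios were tested by exact permutation. Principal components used the 500 most variable genes. Motifs were searched in RefSeq windows from GRCh38.p14, over the 250 bases before the start, on both strands, with N for any base. No protein sequences were used here.

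Pairing by number was checked by correlating, over genes, how far same-numbered libraries lay from the mean of their group. Numbers 1, 2 and 3 gave 0.476, 0.432 and 0.414 for 0 h with 8 h, and 0.367, 0.164 and 0.251 for 0 h with 24 h, so the numbers of the titles were taken to pair these groups. Number 2 of 24 h also correlated with number 3 of 0 h, at 0.270, above the same-number values of 2 and 3, so the pairing there is less certain. Number 3 of 24 h with number 2 of 0 h gave 0.0115. Blocked values are given for members whose call at 24 h against 0 h they change, and elsewhere as counts, names or values. The biological coefficient of variation was 0.137 without the block and 0.0956 with it.

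The members and gene lists were chosen with earlier results of these data known. Values of every library are given for members past the threshold in any comparison, for those called at 24 h against 0 h only with the block and with a log2 fold change of at least 0.3 in size, and for 15 genes named by function (HSPA5, HSP90B1, DNAJB9, HERPUD1, XBP1, ATF6, ERN1, HSPA1A, HSPA1B, DNAJB1, HSPH1, HSPA8, HSP90AA1, HSF1 and CRYAB). HSPA4, SYVN1 and a few others were named after their values were seen. Genes of the other lists are named where they passed at 24 h against 0 h, with DDIT3, ATF4, PPP1R15A, TRIB3, ERO1A, HSPB8 and SERPINH1 in any case. The alternatives were the replicate block, DESeq2 1.42.0, its size factors in edgeR, no filter on low counts, only the groups compared, and each library left out in turn with and without the block.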

Additional observations from a re-analysis of the deposited data

Results flagged for a closer look

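The difference between 24 h and 8 h of formate is a test of whether the effects at these times, against the same untreated libraries, differ. Of the 38 genes, 8 passed it, all lower at 24 h (edgeR's quasi-likelihood test, adjusted by Benjamini-Hochberg). Over all tested genes 1.72% passed as lower and 2.84% as higher. Leaving out 1 library gave 0 to 2545 calls over all genes without the block. The log2 fold change was -1.59 for HSPA1B (SE 0.28; adjusted p 0.0211), and -1.25 for HSPA1A (SE 0.25; adjusted p 0.0248). It was -0.82 for HSPA8 (adjusted p 0.0331) and -0.82 for HSPH1 (0.0171). It was -0.74 for HSP90AA1 (0.0322) and -0.74 for DNAJB1 (0.0405). It was -0.59 for DNAJA1 (0.0430) and -0.59 for BAG3 (0.0300). In all 8 genes each of the 3 libraries of 24 h was lower than each of the 3 of 8 h, as in 16.2% of all genes.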

How the results depend on the processing

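None of the 8 called genes changed sign at 24 h under the alternatives run, but uncalled values did: the sign changed in at least 1 alternative for 30 of the 38 genes at 8 h against 0 h, 8 at 24 h against 0 h (all of the ER) and 12 at 24 h against 8 h (11 of the ER). At 8 h against 0 h every alternative called 0 genes. At 24 h against 0 h the count of 649 genes became 3687 with the replicate block, 1594 with DESeq2, 124 with only the groups compared and 2616 without all libraries numbered 1 (chosen after seeing the data). Leaving out 1 library gave 0 to 899 genes, and 2213 to 3816 with the block. At 24 h against 8 h the count of 696 became 3130 with the block, 1450 with DESeq2, 1787 with only the groups compared and 3072 without all libraries numbered 1, and leaving out 1 library gave 0 to 2545 genes, and 1179 to 5432 with the block. For 24 h against 8 h the same-numbered libraries correlated at 0.423, 0.0367 and 0.404. Number 2 of 24 h correlated more with number 3 of 8 h, at 0.134, so the pairing of these times is also less certain. With the block, which called 8.71% of all genes lower, all 8 called genes kept their call there and HSP90AB1, HSPA9 and HSPD1 also passed as lower.

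The median of the ER genes at 8 h against 0 h, -0.08, became -0.017 without all libraries numbered 1 and ran from -0.10 to -0.021 (block -0.11 to -0.026) with 1 library left out. At 24 h against 0 h it was -0.08, -0.040 without the libraries numbered 1 and -0.092 to -0.045 (block -0.094 to -0.034). At 24 h against 8 h it was -0.03, and -0.052 with DESeq2 and -0.047 with its size factors in edgeR, with a range of -0.047 to -0.0049 (block -0.061 to -0.0027). The median of the cytosolic genes at 24 h against 0 h, -0.73, became -0.49 without the libraries numbered 1 and ran from -0.83 to -0.55 (block -0.81 to -0.54). At 24 h against 8 h it was -0.59, -0.47 without those libraries, and -0.69 to -0.55 (block -0.69 to -0.46). At 8 h against 0 h, where no gene passed, it was -0.06 and ran from -0.17 to 0.08 (block -0.11 to 0.03).

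With only the groups compared, HSPA1A, HSPA1B, BAG3 and HSPH1 kept their call at 24 h against 0 h, and HSPA8, HSP90AA1, DNAJA1 and DNAJB1 had adjusted p-values of 0.0506, 0.0506, 0.0523 and 0.0594. DNAJB1 also lost it without replicate 3 of 8 h or replicate 1 of 24 h. DESeq2 called the 8 genes and HSP90AB1, HSPB1, HERPUD1 and XBP1, all lower. The cause of these shifts was not tested. The median of all genes lay within 0.1 of 0 under each scaling.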
